A study of Homo sapiens with 12 samples.

Results

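The amino acid response genes of the transcription factor ATF4 were followed in 2 human pancreatic carcinoma cell lines, MIA PaCa-2 and PANC-1, after transfection with a control siRNA or with siRNA to RBM3. RBM3 is an RNA-binding protein that cold induces. The members are 32 genes taken from a fixed list of symbols. Each of the 32 matched 1 row of the 63677 gene rows in the deposited count table, and all 32 were among the 17862 genes tested. They fall into 7 regulators, 7 stress effectors, 9 enzymes of amino acid and one-carbon metabolism, 4 amino acid transporters and 5 genes of tRNA charging and export.

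The 4 groups of 3 libraries were MIA PaCa-2 with control siRNA (replicates 1, 2 and 4), MIA PaCa-2 with RBM3 siRNA (1, 2 and 5), PANC-1 with control siRNA (1, 2 and 4) and PANC-1 with RBM3 siRNA (1, 2 and 3). The labels give 1 protocol for all groups, except that the medium of each line is not named. Cells grew for 72 h, received 25 nM of negative control siRNA or of a mixture of 2 anti-RBM3 siRNAs with a lipid transfection reagent in medium without serum, were returned to full medium after 4.5 h and were harvested the next day, per the labels' protocols. Reads were 75 bp from both ends. The labels give the material both as total and as cytoplasmic RNA, name 2 media without assigning them, so that whether the lines shared a medium is not known, and do not say that replicates were separate cultures. The spread that the p-values rest on may therefore be technical. Each line is 1 established line, so a difference between them describes those 2 lines only. In bulk RNA, fewer cells with a transcript and less transcript per cell cannot be told apart.

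ATF4 is the main transcriptional arm of the integrated stress response. When amino acids run short, unfolded protein accumulates or haem is lacking, kinases such as GCN2 and PERK phosphorylate the translation factor eIF2. Bulk translation then falls while the ATF4 mRNA is translated better, so that ATF4 activity is set largely at the protein level. With C/EBP partners ATF4 binds a composite element, the C/EBP-ATF response element, and raises genes that make, import and charge amino acids, together with feedback and death-linked genes. Tumour cells draw on these genes when nutrients are scarce.

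Sequences of the composite element are shown here for members that the results below return to, because the element is the feature by which ATF4 recognises such genes. RefSeq promoter windows on GRCh38.p14, from 250 bases before to 50 bases after each start site, were given for 27 of the 32 members. There was no entry for ALDH1L2, EIF4EBP1, NUPR1, PSPH and SHMT2. Windows were searched on both strands for TGATGNAAN, where N is any base. Each stretch is printed 5′ to 3′ on the strand of the gene, and the capitals mark the match. The stretches lie at chr7:97872442-97872502 (ASNS, minus strand), chr15:40953235-40953295 (CHAC1, plus strand), chr19:33374045-33374105 (CEBPG, plus strand), chr16:70289660-70289720 (AARS, minus strand) and chr1:212565190-212565250 (ATF3, plus strand).
ASNS: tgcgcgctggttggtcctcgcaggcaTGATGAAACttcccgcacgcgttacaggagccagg
CHAC1: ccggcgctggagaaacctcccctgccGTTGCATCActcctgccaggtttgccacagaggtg
CEBPG: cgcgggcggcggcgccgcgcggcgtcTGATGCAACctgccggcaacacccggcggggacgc
AARS: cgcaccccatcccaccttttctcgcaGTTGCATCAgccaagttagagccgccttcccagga
ATF3: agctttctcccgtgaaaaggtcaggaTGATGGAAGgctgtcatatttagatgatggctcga
The first base of the match lay at -68 from the start site in ASNS, -210 in CHAC1, -42 in CEBPG, -188 in AARS and -191 in ATF3. In CHAC1 and AARS the match was on the opposite strand, so it reads as the reverse complement. The element was found in 9 of the 27 members with an entry (33.3%), namely AARS, ASNS, ATF3, CEBPG, CHAC1, GARS, MARS, SLC3A2 and SLC7A1, and in 4.45% of the 27305 genes in the table. Genes with several windows have more chances to hold it. Among genes with 1 window it was in 4 of 16 members and in 3.85% of all such genes. The cAMP response element TGACGTCA, which shares its first 3 letters with TGATGNAAN, was in 0 of 27 members and in 2.25% of all genes. A match is a run of letters and not a measured binding site, and no match says only that those letters are not in the window.

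Total counts ranged from 14217185 to 39652502 per library. Levels are given as CPM, read counts scaled to the library size after TMM normalisation, and the 3 counts that an observed 0 leaves possible were worth 0.0714 to 0.208 CPM. RBM3 itself was at 250, 277 and 207 CPM in the MIA PaCa-2 controls and 44.4, 37.4 and 61.9 CPM with RBM3 siRNA. In PANC-1 it was at 567, 426 and 436 CPM in controls and 96.5, 195 and 83.0 CPM with siRNA, so the target was lower in every siRNA library of both lines. The keratin KRT8 was at 802 CPM or more in all 12 libraries, while EPCAM, another epithelial marker, had between 0 and 4 counts in each MIA PaCa-2 library. Summed leukocyte, endothelial and acinar markers were each at 8.72 CPM or less in every library. The 8 fibroblast or mesenchymal markers summed to 3500 to 8380 CPM, most of it VIM at 3350 to 6520 CPM. Of these 8, DCN and LUM, which mark fibroblasts, were at 0.0694 and 0.0856 CPM at most. COL1A2, on the same list, averaged 1400 CPM over the MIA PaCa-2 libraries. Other markers of the list set the lines apart under control siRNA. The log2 ratio of PANC-1 to MIA PaCa-2 was 7.77 for COL1A1, 3.85 for PDGFRB and -3.32 for COL3A1. PANC-1 siRNA replicate 3 stood apart. It held COL1A2 at 441 CPM, 31.5% of the MIA PaCa-2 mean, where the other 5 PANC-1 libraries had at most 1.67 CPM. ALDH1A1, UCA1 and SLC17A9 were at 51.9%, 56.7% and 38.6% of their MIA PaCa-2 means. FOXA2, which is a PANC-1 transcript here, was at 58.2% of the mean of the other 5 PANC-1 libraries. MFSD1, SPART, DDX43 and B3GALNT1, also PANC-1 transcripts here, were at 54.3%, 39.9%, 38.2% and 66.7%. The fitted PANC-1 siRNA values below are therefore given with and without that library.

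No member passed the test in either line after RBM3 siRNA. In MIA PaCa-2 edgeR called 0 of 32 members at an adjusted p under 0.05, beside 0.0112% of all genes, and DESeq2 and limma-voom also called 0. At an unadjusted edgeR p under 0.05 there was 1 member, CEBPB, beside 2.94% of all genes. The fitted fold changes lay on the negative side for 24 of 32 members, beside 50.6% of all genes, and their median was -0.25 on the log2 scale, beside -0.00386 for all genes. STC2, with 0 or 1 count in each MIA PaCa-2 library, is among the 8 on the positive side and is given no fold change there. The median ran from -0.15 without control replicate 1 to -0.44 without control replicate 2, and was -0.40 without siRNA replicate 1. The negative members numbered 18 without siRNA replicate 5.

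Among the regulators, ATF4 itself was at 315, 204 and 312 CPM in the MIA PaCa-2 controls (replicates 1, 2 and 4) and at 291, 208 and 174 CPM with RBM3 siRNA (replicates 1, 2 and 5). Control replicate 2 and siRNA replicates 2 and 5 were the low libraries, and the groups overlapped. edgeR gave a log2 fold change of -0.30 (SE 0.23, adjusted p 1), which ran from -0.55 to -0.16 over the removals of 1 library. CEBPB, a leucine zipper partner in these complexes, was at 74.2, 51.9 and 78.7 CPM in controls and at 58.1, 47.9 and 35.6 CPM with siRNA. Its control replicate 2 lay below siRNA replicate 1, so here too the groups overlapped. The log2 fold change was -0.53 (SE 0.23), with an unadjusted edgeR p of 0.0392 and an adjusted p of 1. It ranged from -0.72 to -0.37 when each library was left out in turn. All 7 regulators had a negative fitted value, with a median of -0.30.

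ATF3, a stress-induced factor that ATF4 raises, was at 22.8, 9.69 and 31.0 CPM in controls and at 23.8, 8.50 and 6.43 CPM with siRNA. DDIT3, which encodes the death-linked factor CHOP, was at 27.9, 12.7 and 37.0 CPM in controls and at 41.4, 17.1 and 12.1 CPM with siRNA. In both genes siRNA replicate 1 was at the level of the high controls, and siRNA replicates 2 and 5 sat near control replicate 2. CEBPG, the dimer partner whose promoter match is printed above, was at 96.6, 48.6 and 71.3 CPM in controls and at 90.4, 78.8 and 34.1 CPM with siRNA. NUPR1, a small chromatin-linked stress protein, was scarce in this line at 0.643 to 5.74 CPM. ATF5, a close relative of ATF4, went another way, with siRNA replicate 5 the highest library at 106 CPM and siRNA replicate 1 the lowest at 54.1 CPM.

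Among the stress effectors the widest spread was that of CHAC1, an enzyme that breaks down glutathione. It was at 44.0, 7.66 and 45.9 CPM in the MIA PaCa-2 controls and at 25.0, 6.07 and 4.79 CPM with siRNA. The highest library exceeded the lowest by 9.59-fold, the largest ratio of the 31 members that could be compared in this line. Control replicate 2 lay with siRNA replicates 2 and 5, and siRNA replicate 1 stood between the 2 sets of values. edgeR gave a log2 fold change of -1.44 (SE 0.75, adjusted p 1), and it ranged from -2.60 to -1.08 over the removals of 1 library.

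SESN2, a leucine sensor that restrains the growth kinase mTORC1, was at 93.3, 28.7 and 58.7 CPM in controls and at 48.7, 32.2 and 34.3 CPM with siRNA. The lowest library of all 6 was a control, and the edgeR log2 fold change was -0.65 (SE 0.37, adjusted p 1). Leaving out control replicate 1 gave -0.17, and leaving out control replicate 2 gave -1.005. TRIB3, a pseudokinase that damps ATF4 and CHOP, was at 96.0, 39.2 and 74.7 CPM in controls and at 62.8, 50.3 and 34.6 CPM with siRNA. DDIT4, which also restrains mTORC1, was at 258, 202 and 298 CPM and at 204, 147 and 211 CPM. EIF4EBP1, a repressor of cap-dependent translation, hardly varied, from 94.5 to 112 CPM. The 6 libraries of EIF4EBP1 spanned 1.19-fold, the smallest ratio of the 31. VLDLR, a lipoprotein receptor, was scarce, at 1.11 to 4.93 CPM.

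All 9 enzymes had negative fitted values in MIA PaCa-2, with a median of -0.25, and none was called. PHGDH, which catalyses the first committed step of serine synthesis, was at 74.3, 58.9 and 70.1 CPM in controls and at 44.4, 56.0 and 35.3 CPM with siRNA. It was the 1 member whose siRNA libraries all lay below all controls, beside 3.63% of all genes. Its log2 fold change, by edgeR, was -0.58 (SE 0.38, edgeR adjusted p 1), and the two-sided exact permutation p was 0.1, the smallest that 3 against 3 libraries allow. CTH, which makes cysteine from cystathionine, was at 59.5, 25.6 and 51.5 CPM in controls and at 39.0, 32.5 and 14.3 CPM with siRNA. Its lowest control lay below 2 of the 3 siRNA libraries, and the log2 fold change was -0.67 (SE 0.41, edgeR adjusted p 1), or from -0.97 to -0.36 over the removals.

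ASNS, the asparagine synthetase that is the classic target of the pathway, was at 175, 96.2 and 139 CPM in controls and at 143, 139 and 63.6 CPM with siRNA. siRNA replicate 5 was lowest and control replicate 2 the next lowest. PSAT1, the second serine-synthesis enzyme, was at 261, 167 and 176 CPM in controls and 159, 169 and 133 CPM with siRNA, and ALDH1L2, a mitochondrial folate enzyme, at 8.90, 2.09 and 6.31 CPM and 7.75, 5.44 and 1.75 CPM. PSPH, SHMT2, PCK2 and MTHFD2, a mitochondrial folate dehydrogenase, varied less, and their fitted values lay between -0.25 and -0.03.

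Of the transporters, SLC7A5, the light chain of the large neutral amino acid exchanger, was at 498, 261 and 384 CPM in the MIA PaCa-2 controls and at 256, 332 and 187 CPM with siRNA. Control replicate 2 and siRNA replicate 1 were nearly level, and the log2 fold change was -0.56 (SE 0.34, edgeR adjusted p 1), or from -0.79 to -0.30 over the removals. SLC3A2, its heavy chain, ranged from 131 to 185 CPM, and SLC7A1, a carrier of cationic amino acids, from 80.1 to 188 CPM. SLC38A2, a sodium-coupled carrier of small neutral amino acids, was at 1260, 951 and 1640 CPM in controls and at 1670, 1610 and 784 CPM with siRNA. In it siRNA replicates 1 and 2 were as high as or near the highest control, and siRNA replicate 5 was lowest. The 5 tRNA genes, AARS, GARS, SARS and MARS, which charge alanine, glycine, serine and methionine to their tRNAs, and the tRNA exporter XPOT, had fitted values between -0.02 and 0.17.

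**Figure D1:**
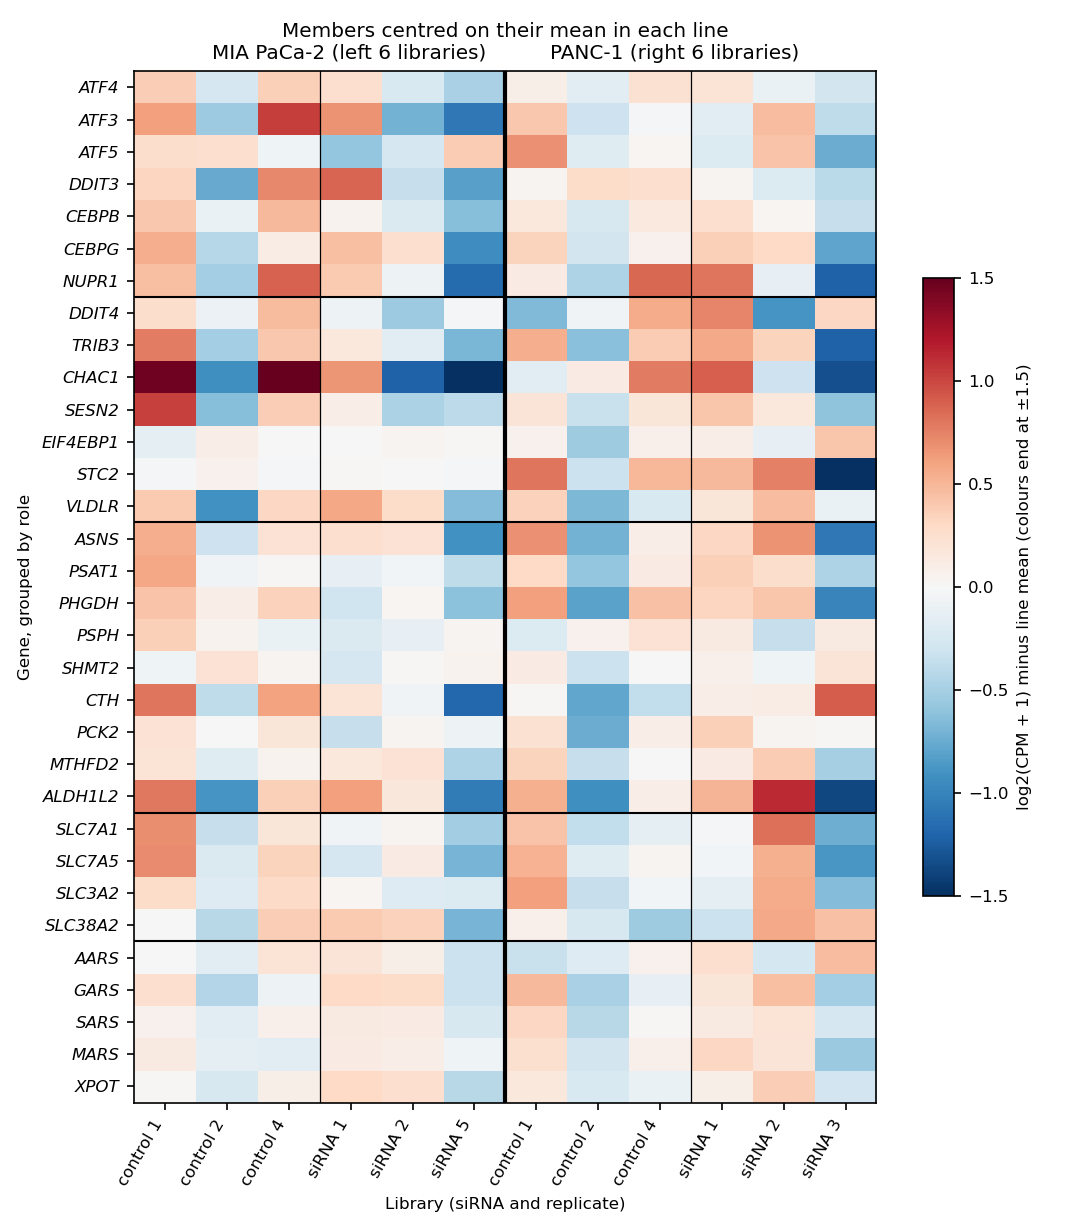
Level of each of the 32 members (rows, grouped by role) in each of the 12 libraries (columns), as log2(CPM + 1) minus the mean of the gene over the 6 libraries of its line. Colours end at ±1.5. In MIA PaCa-2 siRNA replicate 5 was the lowest library for 21 members, and in PANC-1 siRNA replicate 3 was the lowest for 21.

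The spread between replicate libraries was larger than the shift between siRNA groups for nearly all members, as it was for most genes. For 30 of 32 members in MIA PaCa-2 the range of the 3 controls on the log2 scale exceeded the shift of the group means, beside 87% of all genes. The median SD within groups was 0.357 on the log2 scale for the members, beside 0.234 for the 10081 genes at 10 CPM or more, and 23 of 32 members lay above that median. Centred on the line, the members averaged 0.40, -0.28 and 0.30 over the controls (1, 2 and 4) and 0.15, -0.06 and -0.50 over the siRNA libraries (1, 2 and 5), on the log2(CPM + 1) scale. High and low libraries thus occurred in both groups.

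siRNA replicate 5 was the lowest of the 6 MIA PaCa-2 libraries for 21 of 32 members, beside 18.8% of all genes. Control replicate 1, the deepest library, was the highest for 14 members, beside 20.9% of all genes, and control replicate 4 for 7, beside 13.2%. Control replicate 2 and siRNA replicate 5, the lowest for the members, had 16094995 and 17861847 counts, control replicate 4, a high one, had 16300386, and control replicate 1 had 39652502. The part of depth in these levels was not tested. The regulators spanned from -0.67 in siRNA replicate 5 to 0.50 in control replicate 4, the stress effectors from -0.47 to 0.53 and the transporters from -0.53 to 0.42. The tRNA genes spanned only from -0.27 to 0.21.

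The averages of the eIF2 and chaperone lists varied less between these libraries, which does not show that each of their genes did. The 13 genes of eIF2 phosphorylation, which hold the 4 eIF2 kinases, the eIF2B subunits and the phosphatase subunits that reverse the mark, averaged between -0.05 and 0.08 in the 6 MIA PaCa-2 libraries. The 18 endoplasmic reticulum chaperone genes, read out of the XBP1 and ATF6 arms of the unfolded protein response, averaged between -0.12 and 0.14. The 8 tested genes of another list of ATF4 stress targets, which includes GDF15, JDP2 and SQSTM1, averaged 0.39, -0.32 and 0.17 in controls and 0.12, 0.03 and -0.38 with siRNA. The highest and the lowest MIA PaCa-2 library of that list were those of the members. In PANC-1 the list averaged 0.21 in siRNA replicate 3, its highest mean there and the lowest for the members, and -0.38 in control replicate 2. The median of the list in siRNA replicate 3 was -0.17, with 3 of its 8 genes lowest there and 2 highest. By the median siRNA replicate 2 was highest, at 0.28. The list holds DDR2, whose log2 fold change was 3.75 (SE 1.09) after siRNA in PANC-1. Between the lines under control siRNA, PANC-1 over MIA PaCa-2, it was -6.42 (SE 1.21). The part of DDR2 in the mean was not tested. In MIA PaCa-2 JDP2, a leucine zipper repressor, was at 10.3, 2.29 and 5.24 CPM in controls and at 4.14, 3.30 and 1.64 CPM with siRNA.

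**Figure D2:**
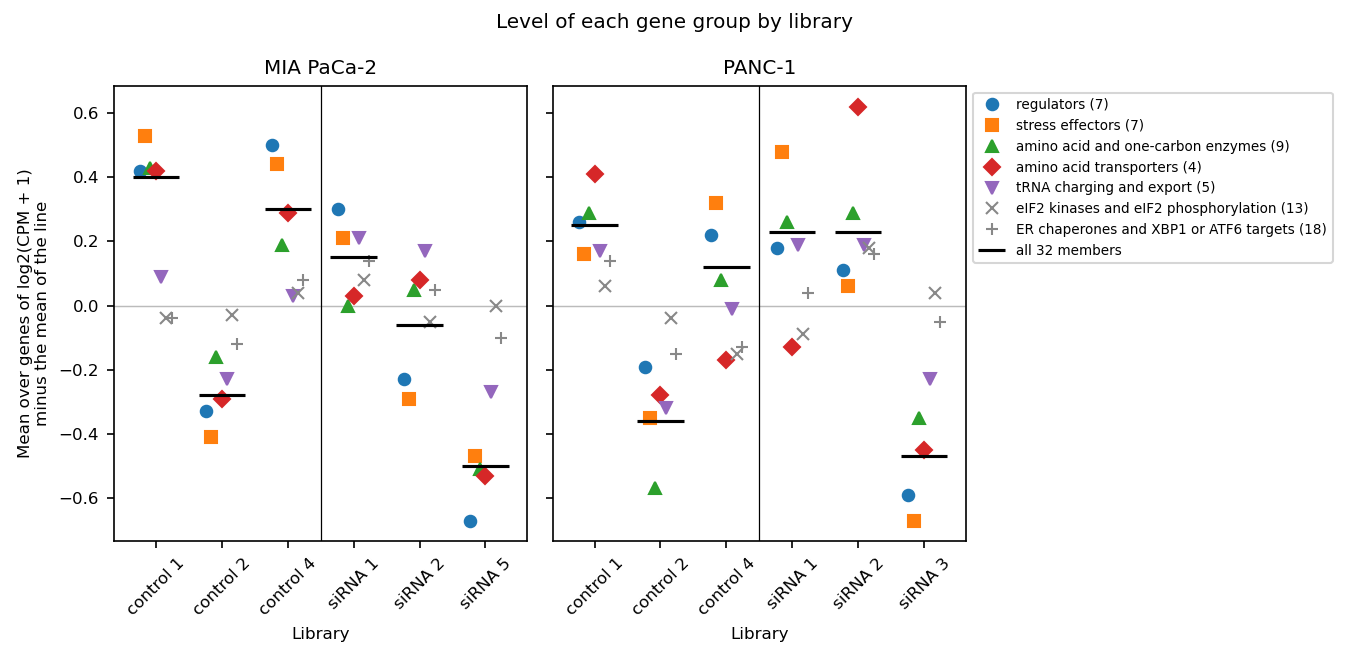
Mean over genes of log2(CPM + 1) minus the line mean (y axis) in each library (x axis), for the 5 roles of the members (coloured), the eIF2 and chaperone lists (grey) and all 32 members (black bars). In MIA PaCa-2 the members reach 0.40 in control replicate 1 and -0.50 in siRNA replicate 5, while the eIF2 list stays between -0.05 and 0.08.

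In PANC-1 edgeR called 0 of 32 members, beside 0% of all genes, and DESeq2 and limma-voom called 0. The target RBM3 was not called by edgeR either, at a log2 fold change of -1.93 (SE 0.30, edgeR adjusted p 0.516). Without siRNA replicate 3 its log2 fold change was -1.72 (SE 0.30). The lack of calls therefore says little about the members. At an unadjusted edgeR p under 0.05 there were 0 members, beside 4.12% of all genes. The fitted values were positive for 18 members, beside 54.8% of all genes, with a median of 0.01 beside 0.03 for all genes. Without siRNA replicate 3 they were positive for 28 members, beside 50.5% of all genes, with a median of 0.18, and again 0 members and 0% of all genes were called. At an unadjusted p under 0.05 there were then 0 members, beside 1.07% of all genes. The sign of the median depended on single libraries. It was -0.13 without control replicate 2, likewise -0.13 without siRNA replicate 2, and 0.19 without control replicate 1. With all libraries limma-voom gave -0.04.

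ATF4 was at 247, 207 and 272 CPM in the PANC-1 controls (1, 2 and 4) and at 268, 217 and 191 CPM in the siRNA libraries (1, 2 and 3). The groups overlapped, and the 6 libraries spanned 1.42-fold, the narrowest ratio of the 32 members in PANC-1. edgeR gave a log2 fold change of -0.10 (SE 0.23, adjusted p 0.9997), and it was -0.01 (SE 0.25) without siRNA replicate 3. DDIT3 was at 33.8, 40.0 and 39.4 CPM in controls and at 33.7, 28.3 and 24.5 CPM with siRNA. All its siRNA libraries lay below all controls, the nearest pair being at 33.7 and 33.8 CPM, as did those of 2.77% of all genes. The exact permutation p was 0.1, the smallest possible. edgeR gave -0.39 (SE 0.42) as its log2 fold change, or -0.30 (SE 0.48) without siRNA replicate 3, when the groups still did not overlap, beside 5.71% of all genes lower in this way. DDIT3 shares 355 exon bases with MARS on the opposite strand. Since the strand setting of the counting is not given in the sources used here, reads of that stretch cannot be told apart between these 2 members. Other members overlap genes too. On the opposite strand ATF5 shares 626 exon bases with NUP62, and DDIT4 shares 847 with DDIT4-AS1. On the same strand ASNS shares 1985 with AC079781.5.

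ATF5 was at 256, 140 and 162 CPM in controls and at 138, 214 and 94.4 CPM with siRNA, a log2 fold change of -0.32 (SE 0.32, edgeR adjusted p 0.9997). Its lowest value was that of siRNA replicate 3, and without it the log2 fold change was -0.09 (SE 0.31). NUPR1 was at 46.6, 30.7 and 78.5 CPM in controls and 75.1, 39.2 and 17.9 CPM with siRNA. CEBPG was at 185, 121 and 153 CPM and at 188, 180 and 84.2 CPM. In both genes siRNA replicate 3 was lowest and control replicate 2 next lowest.

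CTH had the smallest p of the members in PANC-1 and the opposite sign to that in MIA PaCa-2. It was at 5.90, 2.98 and 4.28 CPM in controls and at 6.30, 6.39 and 11.8 CPM with siRNA, so that all siRNA libraries lay above all controls, beside 3.75% of all genes. edgeR gave a log2 fold change of 0.88 (SE 0.43, adjusted p 0.9997), and the exact permutation p was 0.1. CTH was at 14.3 to 59.5 CPM in MIA PaCa-2, and the highest PANC-1 value was that of siRNA replicate 3, the library with MIA PaCa-2 transcripts. Without it the log2 fold change was 0.50 (SE 0.45), and the groups still did not overlap, beside 6.68% of all genes.

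AARS, SLC38A2, EIF4EBP1 and PCK2 followed among the smallest p-values. AARS was at 220, 242 and 290 CPM in controls and at 329, 231 and 381 CPM with siRNA, a log2 fold change of 0.32 (SE 0.20) that became 0.14 (SE 0.21) without siRNA replicate 3. EIF4EBP1 was at 42.9, 27.8 and 43.2 CPM in controls and at 43.9, 37.4 and 54.6 CPM with siRNA, and its 0.25 (SE 0.19) became 0.08 (SE 0.20). Like SLC38A2 and PCK2, both genes were higher in MIA PaCa-2 than in PANC-1 under control siRNA. SLC38A2 was at 640, 514 and 417 CPM in controls and at 483, 899 and 822 CPM with siRNA, with a log2 fold change of 0.49 (SE 0.31), or 0.39 (SE 0.35) without that library. PCK2, the mitochondrial phosphoenolpyruvate carboxykinase, was at 73.7, 37.1 and 67.3 CPM in controls and at 80.5, 64.6 and 63.4 CPM with siRNA. Its 0.22 (SE 0.23) rested on control replicate 2 and was -0.02 without it, and 0.27 (SE 0.25) without siRNA replicate 3. The edgeR adjusted p of all 4 was 0.9997. The fitted values of the other 25 members, those outside the 6 smallest p-values and ATF4, lay between -0.39 and 0.41, or between -0.30 (DDIT3) and 0.86 (ALDH1L2) without siRNA replicate 3.

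For 23 of 32 members control replicate 2 was the lowest PANC-1 control and siRNA replicate 3 the lowest siRNA library, beside 15.5% of all genes. The other 9 were AARS, CHAC1, CTH, DDIT3, DDIT4, EIF4EBP1, PSPH, SHMT2 and SLC38A2. ASNS was at 330, 125 and 219 CPM in controls and at 254, 327 and 96.7 CPM with siRNA. CHAC1 was at 24.2, 29.9 and 47.9 CPM in controls and at 51.8, 21.9 and 10.4 CPM with siRNA, and TRIB3 at 99.8, 44.0 and 88.9 CPM and 102, 86.6 and 28.9 CPM. ALDH1L2 was at 15.8, 5.13 and 11.4 CPM and at 15.5, 24.2 and 3.50 CPM. Apart from CHAC1, control replicate 2 was the lowest control of these genes, and siRNA replicate 3 was the lowest library of all 4. SLC7A5, at 743, 458 and 535 CPM in controls and 504, 753 and 282 CPM with siRNA, had the same lowest library in each group. SESN2 followed at 65.9, 45.4 and 65.3 CPM and 76.9, 64.3 and 37.5 CPM.

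**Figure D3:**
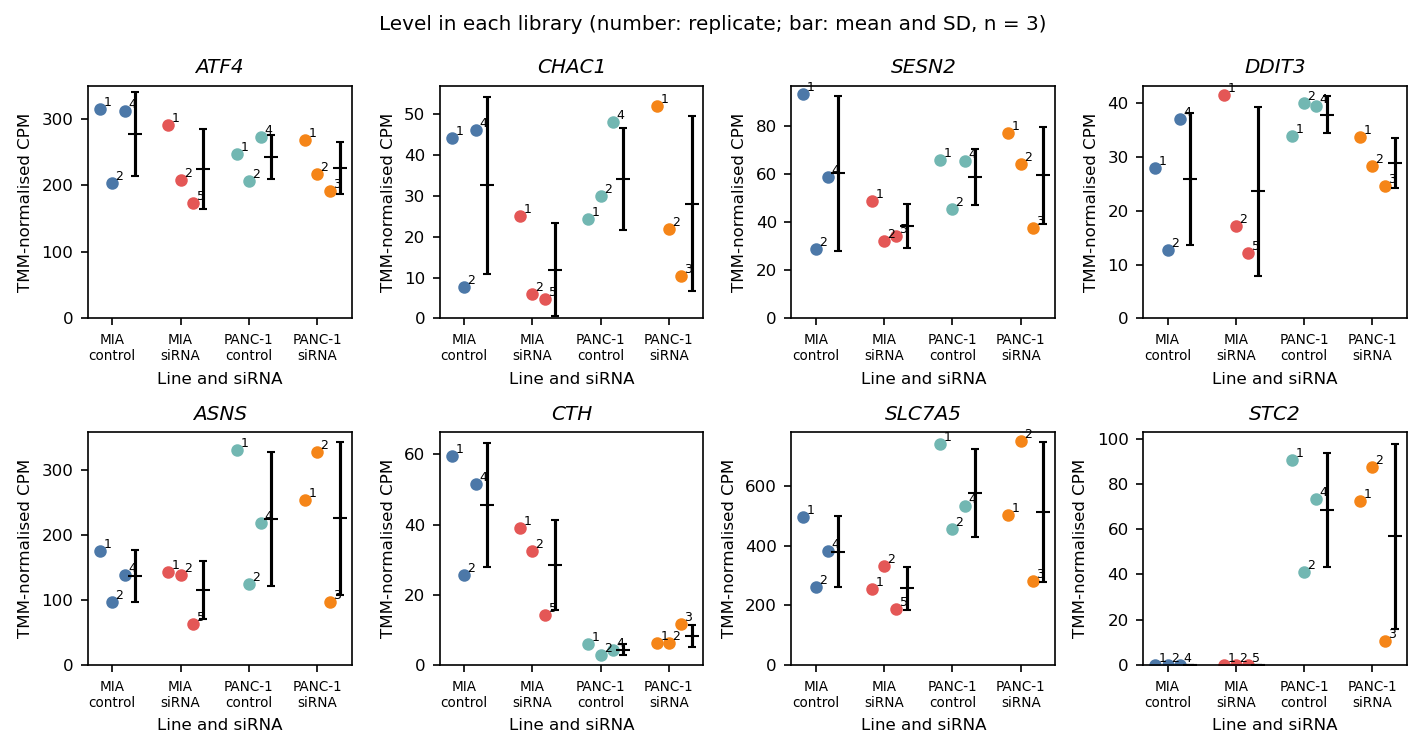
TMM-normalised CPM (y axis, from 0) of 8 members in every library (points, numbered by replicate) by line and siRNA, with the mean and SD of each group beside them (bars, n = 3). CHAC1 and SESN2 overlap between siRNA and control in both lines, and STC2 is at 0.0654 CPM or less in MIA PaCa-2 and at 10.4 to 90.6 CPM in PANC-1.

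siRNA replicate 3 was the lowest PANC-1 library for 21 of 32 members, beside 25.5% of all genes, and the members averaged -0.47 in it. They averaged 0.25, -0.36 and 0.12 over the controls (1, 2 and 4) and 0.23 in each of siRNA replicates 1 and 2. Without siRNA replicate 3, control replicate 2 was the lowest of 5 libraries for 25 members, beside 22.5% of all genes, and that library had the fewest counts, whose part in its low values was not tested. In 10 of 32 members the 6 MIA PaCa-2 libraries and the other 5 PANC-1 libraries did not overlap, beside 49.2% of all genes. In 9 of the 10 siRNA replicate 3 lay outside the PANC-1 values on the MIA PaCa-2 side, beside 79% of the 8784 genes that were so separated. ATF5, CEBPG, NUPR1, STC2 and MARS were lower there, and EIF4EBP1, SHMT2, CTH and AARS were higher. STC2, a secreted glycoprotein, lay furthest out by ratio, at 10.4 CPM against 41.1 to 90.6 CPM in the other 5 libraries. That was a deeper fall than those of the PANC-1 transcripts FOXA2, MFSD1, SPART, DDX43 and B3GALNT1. They were at 38.2% to 66.7% of the mean of the other 5 libraries. Low values in siRNA replicate 3 were not particular to STC2. ALDH1L2 was at 3.50 CPM against 5.13 to 24.2 CPM in the other 5 libraries, and CHAC1 at 10.4 against 21.9 to 51.8 CPM. NUPR1 was at 17.9 against 30.7 to 78.5 CPM, and TRIB3 at 28.9 against 44.0 to 102 CPM. The cause of these low values, that of STC2 among them, was not tested. The exception among the 10 separated members was PCK2, whose 63.4 CPM lay within the other 5.

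Spread between PANC-1 replicates was again wide for the members. The median SD within groups was 0.43 on the log2 scale, beside 0.252 for genes at 10 CPM or more, and 28 of 32 members lay above that median. Without siRNA replicate 3 the values were 0.383 and 0.211, with 27 of 32 above. The range of the controls exceeded the shift of the group means for 31 of 32 members, beside 83.3% of all genes, and without siRNA replicate 3 again for 31, beside 87.5%.

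**Figure D4:**
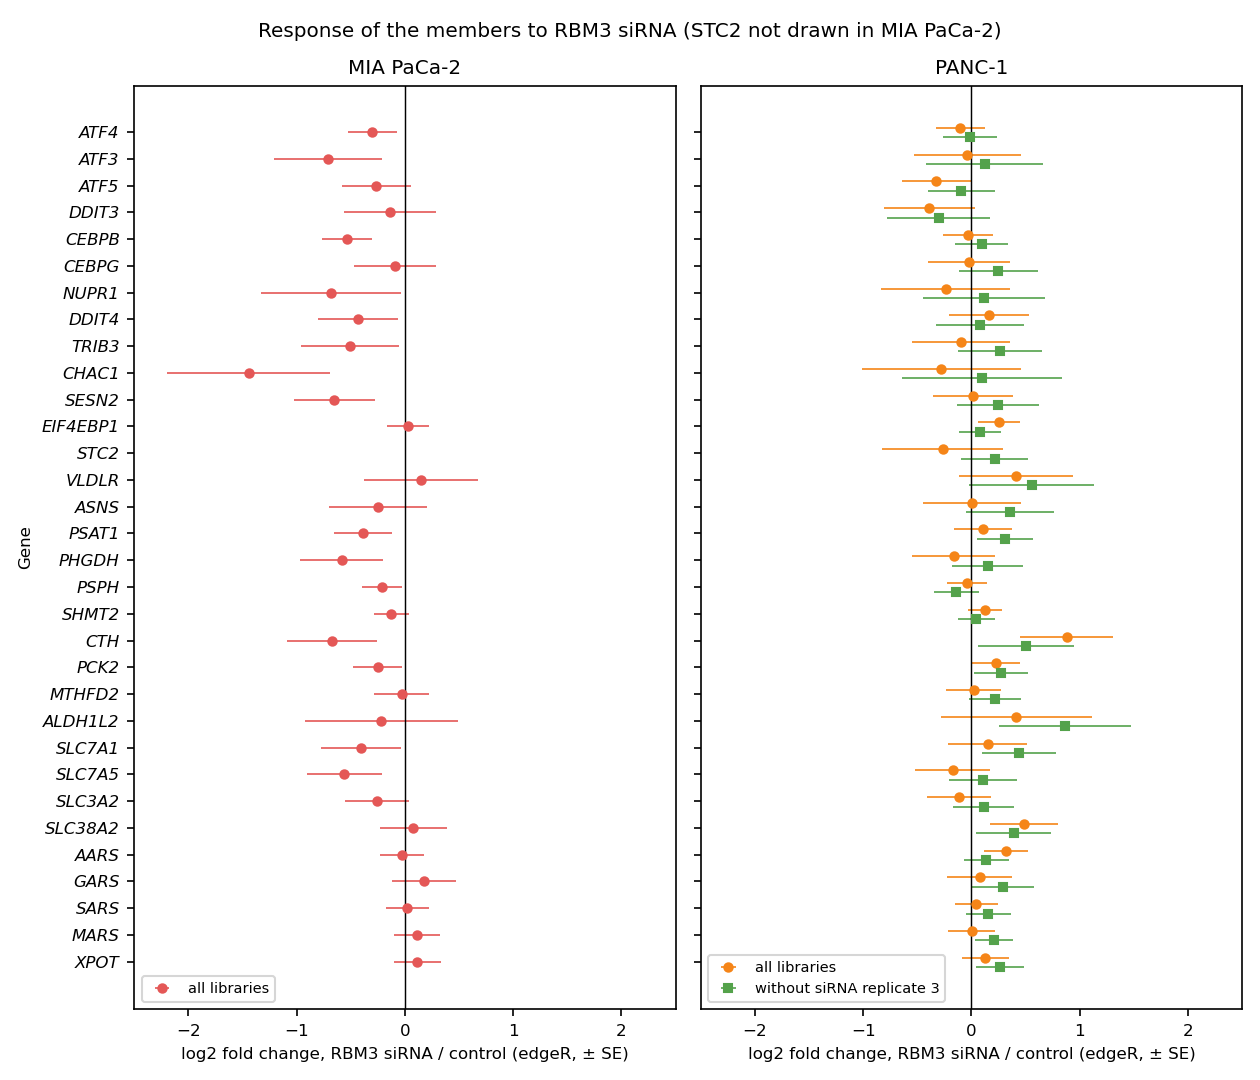
edgeR log2 fold change of RBM3 siRNA against control siRNA (x axis, bars ± SE) for the members (y axis) in MIA PaCa-2 (left) and PANC-1 (right), where squares leave out siRNA replicate 3. CHAC1 lies at -1.44 in MIA PaCa-2, CTH at -0.67 and 0.88 in the 2 lines, and 0 members passed the threshold in either.

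Whether the lines differed in their response was asked by the interaction of line and siRNA. edgeR called 0 members, beside 0% of all genes, and DESeq2 and limma-voom called 0. The fitted difference, PANC-1 minus MIA PaCa-2, was positive for 27 of 32 members, beside 57.6% of all genes, with a median of 0.30 beside 0.06. Without PANC-1 siRNA replicate 3 it was positive for 30, beside 51.6%, with a median of 0.39 beside 0.01. Other removals lowered the count. It was 20 without PANC-1 control replicate 2 (median 0.135) and 20 without PANC-1 siRNA replicate 2 (median 0.193). It was 22 without MIA PaCa-2 control replicate 1 (median 0.126) and 22 without siRNA replicate 5 (median 0.219). Without MIA PaCa-2 control replicate 2 it was 29 (median 0.498). The values that follow use all libraries unless a removal is named. CTH was the 1 member at an unadjusted p under 0.05, beside 2.98% of all genes, with a difference of 1.55 (SE 0.60) and an edgeR adjusted p of 0.9999. CEBPB differed by 0.50 (SE 0.33), PCK2 by 0.48 (SE 0.32) and PSAT1 by 0.50 (SE 0.38), and the edgeR adjusted p of each was 0.9999. Without PANC-1 siRNA replicate 3, 0 members had an unadjusted p under 0.05 in this comparison, beside 1.94% of all genes. The differences were then 1.18 (SE 0.59) for CTH, 0.63 (SE 0.33) for CEBPB, 0.53 (SE 0.33) for PCK2 and 0.70 (SE 0.35) for PSAT1. No single difference passed the test, which does not show that the responses were alike.

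Under control siRNA the lines differed in 13 of 32 members, beside 50.8% of all genes. Of these, 6 were higher in PANC-1, beside 26% of all genes, and 7 were lower, beside 24.8%. The libraries of 13 members did not overlap between the lines, beside 61.5% of all genes. The count of 13 ran from 9 without PANC-1 control replicate 1 to 14 over the removals.

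STC2 separated the lines most. It had 0, 1 and 0 counts in MIA PaCa-2 controls and was at 90.6, 41.1 and 73.3 CPM in PANC-1 controls, 4300 counts against 1 in all. The ratio of the scaled counts was 5286, with a 95% counting interval from 948.3 to 208800, and the edgeR adjusted p was 5.47e-06. Its fitted log2 fold change depends on the prior count and is no bound. NUPR1 was at 3.97, 1.57 and 5.74 CPM in the MIA PaCa-2 controls and at 46.6, 30.7 and 78.5 CPM in PANC-1, a log2 fold change of 3.78 (SE 0.68, edgeR adjusted p 0.000704). MARS was at 179, 149 and 146 CPM and at 394, 274 and 351 CPM, a log2 fold change of 1.10 (SE 0.22, edgeR adjusted p 0.00125). All PANC-1 controls of these 3 genes lay above all MIA PaCa-2 controls.

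CEBPG, ATF5 and PHGDH were also called higher in PANC-1, but not under every removal. CEBPG had a log2 fold change of 1.08 (SE 0.38, edgeR adjusted p 0.0326). That p was 0.118 without MIA PaCa-2 control replicate 2, 0.0876 without its replicate 4, 0.104 without PANC-1 control replicate 1 and 0.0654 without its replicate 4. ATF5 had 1.03 (SE 0.32, edgeR adjusted p 0.0186), and that p became 0.0660 without MIA PaCa-2 control replicate 4 and 0.0866 without PANC-1 control replicate 1. PHGDH had 1.04 (SE 0.38, edgeR adjusted p 0.0380), and its libraries overlapped, since PANC-1 control replicate 2 held 68.9 CPM against 58.9 to 74.3 CPM in MIA PaCa-2. Its adjusted p was 0.0712 by limma-voom. By edgeR it was 0.0638, 0.107 and 0.0830 with MIA PaCa-2 control 1, 2 or 4 left out, and 0.140 and 0.109 without PANC-1 control replicates 1 and 4.

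Those lower in PANC-1 were enzymes, a transporter, a synthetase and the translation repressor. CTH was at 45.5 ± 17.7 CPM in MIA PaCa-2 and 4.39 ± 1.46 CPM in PANC-1 (SD, n = 3), which edgeR put at -3.36 on the log2 scale (SE 0.46, edgeR adjusted p 0.000107). EIF4EBP1 was at 94.5, 112 and 105 CPM in the MIA PaCa-2 controls and 42.9, 27.8 and 43.2 CPM in PANC-1, at -1.45 (SE 0.20, edgeR adjusted p 9.87e-05). PCK2 was at 161, 138 and 157 CPM and at 73.7, 37.1 and 67.3 CPM, at -1.35 (SE 0.23, edgeR adjusted p 0.000489). No library of one line reached into the other in any of the 3.

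AARS was at 609, 545 and 697 CPM in the MIA PaCa-2 controls and at 220, 242 and 290 CPM in PANC-1 controls, a log2 fold change of -1.30 (SE 0.21, edgeR adjusted p 0.000329). The sister synthetase MARS differed in the other direction, as given above. SLC38A2 had a log2 fold change of -1.29 (SE 0.32, edgeR adjusted p 0.00483). SHMT2, the mitochondrial serine hydroxymethyltransferase, was at 169, 206 and 182 CPM and at 138, 101 and 126 CPM. PSPH, the last enzyme of serine synthesis, was at 147, 119 and 107 CPM and at 73.4, 89.2 and 98.8 CPM. The edgeR adjusted p was 0.00716 for SHMT2 and 0.0343 for PSPH. For PSPH it was 0.0523 with no filter on low counts, 0.155 or 0.0588 with MIA PaCa-2 control 1 or 2 left out, and 0.135 or 0.0707 with PANC-1 control 1 or 2 left out. PSPH has a pseudogene, PSPHP1, with 1292 counts against 31292 in all libraries, and reads could be split between them.

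Among the 19 members not called, 5 regulators and stress effectors were picked after their values were seen. ATF4 had a log2 difference between the lines of -0.20 (SE 0.23), CHAC1 of 0.06 (SE 0.74), TRIB3 of 0.15 (SE 0.45), SESN2 of -0.04 (SE 0.37) and ATF3 of -0.23 (SE 0.50). With these SEs the values do not show that the lines were alike in these genes. DDIT4 did not overlap between the lines, at 258, 202 and 298 CPM in MIA PaCa-2 and 82.7, 126 and 194 CPM in PANC-1, and its edgeR adjusted p was 0.0578. It passed the threshold by DESeq2 (adjusted p 0.0470), by limma-voom (0.0452) and by edgeR on the 2 groups alone (0.0192).

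**Figure D5:**
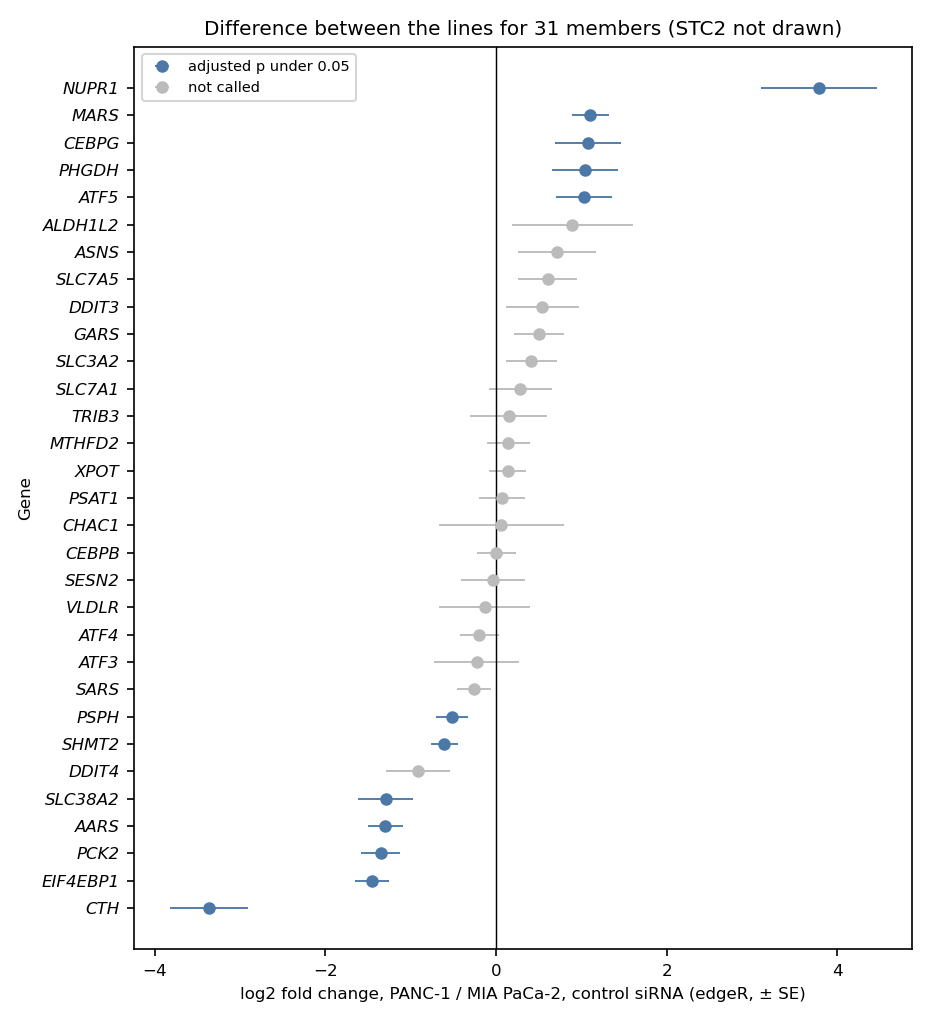
edgeR log2 fold change between the lines, PANC-1 over MIA PaCa-2, with control siRNA (x axis, bars ± SE) for 31 members (y axis), sorted by value; STC2, with 1 count in MIA PaCa-2, is not drawn. Blue points passed the threshold, from NUPR1 at 3.78 to CTH at -3.36, and grey points did not.

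Levels per kilobase of exon compare genes only roughly. The length was that of all annotated exons of a gene merged, so a gene whose expressed transcript leaves out exons ranks too low. On this scale the highest members in MIA PaCa-2 controls were SLC38A2 at 194 CPM per kb, AARS at 137, DDIT4 at 123, ATF4 at 110 and EIF4EBP1 at 97.0. In PANC-1 controls they were GARS at 131 CPM per kb, SLC7A5 at 122, PSAT1 at 96.3, ATF4 at 96.2 and SLC38A2 at 79.3. On this rough scale ATF4 was the fourth highest member in both lines, level with PSAT1 in PANC-1.

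Other genes of the pathway gave 0 calls in both siRNA comparisons in each of 6 lists. Between the lines, where 26% of all genes were called higher in PANC-1 and 24.8% lower, edgeR called 0 higher and 3 lower among the 13 eIF2 genes. EIF2AK4, which encodes the amino acid sensor kinase GCN2, had a log2 fold change of -1.15 (SE 0.17), and EIF2AK2, which encodes the kinase PKR, one of -0.82 (SE 0.18). Of 16 other cytosolic tRNA synthetases 2 were called higher and 8 lower, among them the tryptophan enzyme WARS at -2.62 (SE 0.39) and the lysine enzyme KARS at -1.24. Of 16 tested mitochondrial synthetases 4 were called higher and 9 lower, including SARS2 at 2.09 and WARS2 at -1.30.

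Of 16 other genes of amino acid transport and synthesis 4 were called higher and 6 lower in PANC-1. They included GPT2, an alanine transaminase, at a log2 fold change of -1.32, and CBS, which makes the cystathionine that CTH splits, at -1.02. The transcripts of both enzymes of this route to cysteine were thus lower in PANC-1 under control siRNA, and enzyme activity was not measured. Of 8 tested stress targets outside the members 4 were called higher and 2 lower. GDF15, a secreted stress cytokine, was at 6.73, 1.31 and 2.40 CPM in the MIA PaCa-2 controls and at 170, 245 and 511 CPM in PANC-1 controls, a log2 fold change of 6.39 (SE 0.77). The chaperone list gave 6 higher and 5 lower of 18, including HERPUD1 at -1.46 and MANF at 0.77.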

How the data were processed

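RNA was sequenced from MIA PaCa-2 and PANC-1 cells under control or RBM3 siRNA, 12 libraries in 4 groups of 3. The deposited table holds unnormalised read counts for each Ensembl gene. The build was hg19/GRCh37, and the tools were featureCounts, Subread, Picard and STAR 2.5.2a, per the submitters' processing notes. The sources used here do not give the annotation release, the strand setting or the handling of duplicates, each of which could move the counts of abundant or overlapping genes. A name table matched 52181 of 63677 identifiers and gave 39699 symbols.

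Counts were tested with edgeR 4.0.16 (R 4.3.3), using its quasi-likelihood F-test, two-sided, with TMM factors and filterByExpr at a minimum count of 10. One fit of the 4 group means held all 12 libraries and left 8 residual degrees of freedom. Benjamini-Hochberg adjustment ran over all 17862 genes, with a threshold of 0.05. Each SE is an approximation, |log2 fold change| over the square root of F. Library profiles used log2(CPM + 1). Exon lengths and overlaps came from GENCODE on another build than that of the counts, so no coordinates of it are given.

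Alternatives were DESeq2 1.42.0, limma-voom (limma 3.58.1), median-of-ratios size factors, no filter, 1 CPM in 6 libraries, the compared groups alone, the replicate number as a block and the removal of each library. The scripts were tested on simulated data. Within each group every pair of libraries differed by more than sampling noise, at a chi-square over degrees of freedom from 11.7 to 184. Intervals and limits cover counting error only.

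The members and the gene lists were chosen with earlier results of these data known. Named with full statistics were, for each siRNA comparison, the 6 members with the smallest p and ATF4, for the difference of responses the 4 smallest, and between the lines every member called. Up to 3 genes were named per other list by the smallest p. JDP2 and the members whose libraries are described beyond this rule were named after their values were seen.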

Additional observations from a re-analysis of the deposited data

How the results depend on the processing

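After RBM3 siRNA, 0 members were called in either line under each of 7 other settings and 12 removals of 1 library, and for the difference of responses under 6 settings and 12 removals. The median log2 fold change of the members ran from -0.27 to -0.08 in MIA PaCa-2 over the other settings and from -0.44 to -0.15 over the removals. In PANC-1 it ran from -0.04 to 0.31 and from -0.13 to 0.19. With the replicate number as a block the medians were -0.08 and 0.31, with 17 of 32 members negative in MIA PaCa-2 and 29 positive in PANC-1, 0 members were called in each siRNA comparison and 13 between the lines. The labels do not state that the numbers pair the samples. Libraries of the same number correlated at 0.148 and -0.102 for MIA PaCa-2 and at -0.478 and -0.453 in PANC-1, over deviations from the group means. Control and siRNA libraries of unlike number correlated at -0.476 to 0.453 in MIA PaCa-2 and at -0.572 to 0.692 in PANC-1. Only 2 numbers are shared in each line, and deviations from a mean of 3 libraries are tied to each other. These values therefore cannot decide whether the samples were paired. The sign turned in PANC-1 for ATF4, which was 0.10 with the replicate block, and for PCK2, which was -0.02 without control replicate 2 and ran to 0.41 over the removals; the cause was not tested. Between the lines 13 to 14 members were called over the other settings and 9 to 14 over the removals. The median ran from 0.08 to 0.14 and, over the removals, from -0.10 to 0.34. The call of PSPH was also lost with the replicate block, at an edgeR adjusted p of 0.0709. Over all genes the edgeR calls (MIA PaCa-2 2, PANC-1 0) became 21 and 3 with DESeq2, and 3 and 230 with no filter on low counts, none of them a member. With 3 libraries a group and this spread, effects of the siRNA that are small beside the SEs were not detectable. Effects large beside the SE could be missed too. The target RBM3 was called by edgeR in MIA PaCa-2 (log2 fold change -2.35, SE 0.31, adjusted p 0.0426). In PANC-1 RBM3 was not called (-1.93, SE 0.30, adjusted p 0.516). The MIA PaCa-2 call depended on the setting. There edgeR called 0 genes, and so not RBM3, with median-of-ratios size factors, 1 CPM in 6 libraries or the replicate block. The same held when any 1 MIA PaCa-2 library was left out. The lack of calls among the members therefore says little in MIA PaCa-2 too.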
